A study of Mus musculus with 24 samples.

Results

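Astrocytes wrap brain microvessels with specialised processes, the endfeet, and parts of these endfeet remain attached when vessels are isolated. The 10 genes described here are Aqp4, Gfap, Gja1, Gjb6, Slc1a2, Slc1a3, Aldoc, S100b, Kcnj10 and Mlc1, chosen by symbol as genes of the astrocyte and its endfoot. They are 10 of the 17270 genes of the table, and all 10 passed the filter of a mean above 5 normalized counts that left 15982 genes for testing. RNA had been sequenced from microvessels of male C57BL/6J mice, 10 to 12 weeks of age, after sham surgery, in which the filament was withdrawn at once, or after a transient occlusion of the middle cerebral artery (tMCAO) of 60 min. The 8 groups combine tMCAO or sham surgery, the ipsilateral or contralateral hemisphere, and 24 h or 7 days, with 3 libraries each. No transgene or deletion was used, and all mice, controls included, had an intervention on the ipsilateral side. Each library pooled 3 hemispheres of the same kind, so that 9 animals stood behind a group and differences between single animals cannot be seen. Infarct size was not known for the pooled hemispheres, and the study removed samples as outliers before it arrived at 3 per group.

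Endfeet cover nearly the whole surface of brain capillaries and control the exchange of water, ions and metabolites between blood vessels and brain tissue. Aqp4 codes for the water channel of the endfoot membrane, Kcnj10 for a potassium channel beside it, and Mlc1 for a membrane protein of the contacts between endfeet. Gja1 and Gjb6 code for the main connexins of astrocytes, which build their gap junctions, and Slc1a2 and Slc1a3 for the transporters that clear glutamate from the synaptic cleft. Aldoc is a glycolytic enzyme and S100b a calcium-binding protein that cells of the oligodendrocyte lineage also make. Gfap is an intermediate filament of astrocytes and the classic marker of reactive astrogliosis after injury.

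The promoters of 4 genes are shown because these genes stand for different courses after stroke. Slc1a2 and Slc1a3 were lower in the stroke hemisphere at both times, whereas Gfap and Gja1 were not called different from sham ipsilateral libraries at 24 h. The sequences are RefSeq's, on GRCm38.p6, and run from 250 bases before the annotated start of the gene to 10 bases after it. Positions are chr11:102897191-102897450 on the minus strand for Gfap, chr10:56377050-56377309 on the plus strand for Gja1, chr2:102706188-102706447 on the plus strand for Slc1a2 and chr15:8710798-8711057 on the minus strand for Slc1a3. Capitals mark matches to the letters TTCNNNGAA, which STAT factors bind, or TGANTCA, which AP-1 factors bind.
Gfap: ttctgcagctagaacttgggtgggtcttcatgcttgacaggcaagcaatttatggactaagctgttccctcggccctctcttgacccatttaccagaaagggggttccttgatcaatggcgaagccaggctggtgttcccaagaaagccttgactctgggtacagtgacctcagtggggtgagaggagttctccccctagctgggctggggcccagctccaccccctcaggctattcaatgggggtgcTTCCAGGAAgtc
Gja1: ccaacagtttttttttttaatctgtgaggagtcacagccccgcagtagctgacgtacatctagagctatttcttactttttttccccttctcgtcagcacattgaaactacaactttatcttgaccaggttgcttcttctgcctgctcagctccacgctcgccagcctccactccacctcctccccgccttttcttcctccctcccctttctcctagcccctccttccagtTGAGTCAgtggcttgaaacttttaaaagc
Slc1a2: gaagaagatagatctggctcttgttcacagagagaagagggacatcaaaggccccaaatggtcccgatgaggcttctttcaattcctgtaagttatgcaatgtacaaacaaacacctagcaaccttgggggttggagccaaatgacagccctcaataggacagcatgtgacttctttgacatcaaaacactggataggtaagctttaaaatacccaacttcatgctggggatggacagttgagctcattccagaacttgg
Slc1a3: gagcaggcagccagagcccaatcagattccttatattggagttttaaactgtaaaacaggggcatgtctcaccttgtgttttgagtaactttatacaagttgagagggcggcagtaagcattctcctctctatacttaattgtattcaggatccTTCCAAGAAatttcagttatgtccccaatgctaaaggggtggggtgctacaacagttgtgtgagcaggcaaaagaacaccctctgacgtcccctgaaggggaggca

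A promoter was found for 9 of the 10 genes, with 2 starts for Aldoc, and Aqp4 was not matched. Windows of 300 bases, from 250 before to 50 after the start, were searched on both strands. A gene counted where any of its windows matched, while the shares given beside these counts are of windows. TTCNNNGAA was present in 3 of the 9 genes, Gfap, Slc1a3 and Aldoc, and in 8.30% of all 32851 windows. For Aldoc these letters lay only in the downstream window of its 2. TGANTCA was found in 1 of the 9 genes, Gja1, and in 7.81% of all windows. In Gfap the STAT letters began at position -2 relative to the start, in Slc1a3 at position -96, and the AP-1 letters of Gja1 began at position -19. The CCAAT box (CCAAT) was present in 4 of the 9 genes against 37.4% of all windows, the GC box (GGGCGG) in 3 against 35.7%, and the TATA box (TATAAA) in 1, Slc1a3, against 13.6%. The letters of these 5 motifs cannot contain one another, and a match is a description of the letters only. All 10 genes are protein-coding, and in the deposited annotation Slc1a3 spans chr15:8634124-8710764, Gjb6 chr14:57123303-57133611 and Gfap chr11:102887336-102897200, each on the minus strand. The window of Slc1a2 lay inside the span of that gene in the deposited annotation, which begins at position 102658659 of chromosome 2, and not before its outer start. The Mlc1 window and the downstream window of Aldoc also lay inside the deposited spans of their genes. GC content ran from 45.3% in Slc1a3 to 63.7% in Kcnj10, and the Kcnj10 window held 21 CpG dinucleotides against 1 in that of Slc1a2.

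The deposited values are normalized counts, which the authors obtained by dividing reads per gene by a size factor of each library and rounded to whole numbers. Totals per library lay between 15924780 and 18787932 normalized counts. None of the 10 genes was at 0 in any of the 24 libraries. The libraries held abundant endothelial RNA, with Cldn5, the tight junction protein of brain endothelium, at 43185 to 50190 normalized counts in sham ipsilateral libraries at 24 h. Per kilobase of exon (GENCODE M21), and averaged over the 18 libraries that were not ipsilateral after stroke, Slc1a2 was the highest of the 10 genes with 776 ± 384 normalized counts (SD, n = 18). Aldoc followed with 686 ± 360, then Gfap with 466 ± 372, and Aqp4 was the lowest with 61.3 ± 36.1 normalized counts per kilobase. The mean ± SD of neighbours in this order overlapped among the first 9 genes, whereas Aqp4 lay below its neighbour Kcnj10 (216 ± 105) without such overlap. Gene bounds in GENCODE M21 differed from the deposited ones for Aqp4, Gfap and Gja1. Their values per kilobase thus rest on lengths that may differ from those of the counted genes. Measured per gene rather than per length, Slc1a2 ranged from 2742 to 28183 normalized counts over the 24 libraries and Aqp4 from 130 to 916.

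A pair of libraries stood apart from their groups in these genes. The summed normalized counts of the 10 genes were 57055 in replicate 1 of the stroke contralateral group at 7 days, against 19420 and 23177 in the other libraries of that group. In this library the sum of 5 neuronal markers was also the highest of all 24 (10665, against 355 to 5094 in the rest). Replicate 3 of the sham ipsilateral group at 7 days reached a sum of 36794 for the 10 genes, against 19386 and 17727. Values without them are given beside the results that they move most.

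**Figure D1:**
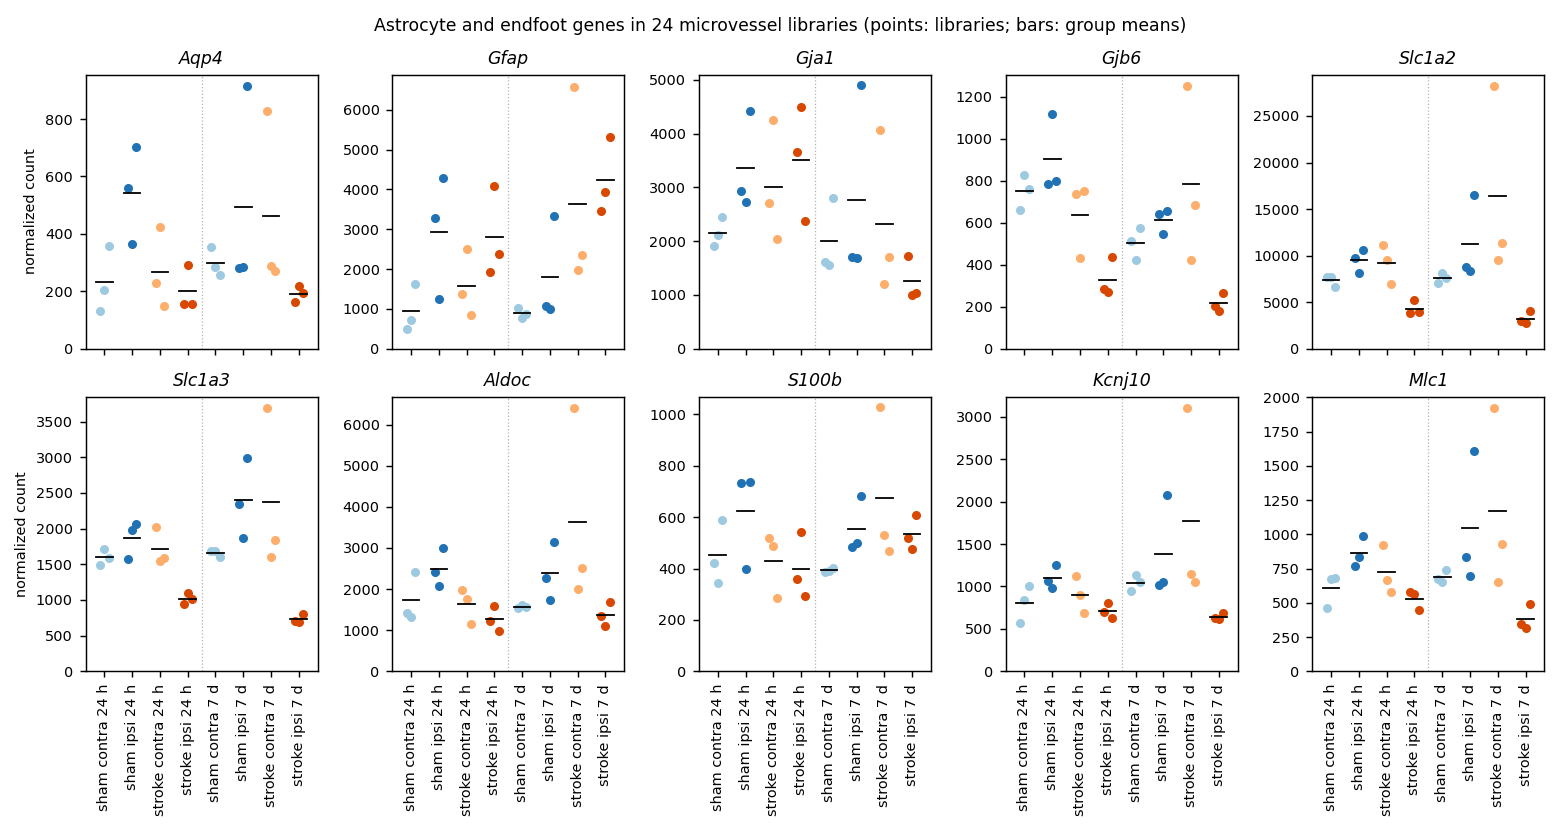
Normalized counts (y axis, linear, from 0) of the 10 astrocyte and endfoot genes in the 8 groups (x axis), with a point for each of the 3 libraries and a bar for their mean. Slc1a2, Slc1a3 and Gjb6 were lowest in the stroke ipsilateral groups, Gfap reached 3453 to 5327 in stroke ipsilateral libraries at 7 days, and 1 stroke contralateral library at 7 days lay high in all panels.

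Glutamate uptake genes were lower in the ipsilateral hemisphere 24 h after tMCAO. Slc1a2, the main glutamate transporter of the forebrain, was at 3796, 5244 and 3904 normalized counts in the 3 stroke ipsilateral libraries and at 9705, 8116 and 10609 in the 3 sham ipsilateral libraries. All stroke libraries lay below all sham libraries, and the difference was -1.14 ± 0.31 on the log2 scale (SE; limma with Benjamini-Hochberg adjustment over all tested genes, adjusted p = 0.00852). Slc1a3 was at 943, 1097 and 1010 against 1576, 1977 and 2069 normalized counts, again without overlap, and fell by 0.87 (SE 0.22, adjusted p = 0.00521 in limma). Against the sham contralateral libraries of the same time, a reference chosen after the data were seen, Slc1a2 was at -0.78 and lost its call (adjusted p = 0.0613). A gene was called where its adjusted p was below 0.05 and its level differed by more than 1.5-fold in either direction. By this rule 8.23% of all tested genes were lower and 10.0% higher in this comparison, and 5 of the 10 astrocyte genes were lower and 0 higher. The median log2 fold change of the 10 genes was -0.79, against -0.02 over all tested genes. Their libraries did not overlap for 7 of the 10 genes, all lower, while 49.0% of all tested genes did not overlap in this comparison.

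Of the connexin genes, Gjb6 fell and Gja1 was not called at 24 h. Gjb6 was at 282, 268 and 434 normalized counts in the stroke libraries and at 785, 1119 and 797 in the sham libraries. These values did not overlap, and the log2 fold change was -1.47 ± 0.29 (SE; adjusted p = 9.9e-04 in limma), the largest decrease of the 10 genes at this time. For Gja1 the 3 stroke libraries held 3659, 4490 and 2375 normalized counts and the 3 sham libraries 2932, 2730 and 4422. Both groups covered the same range, with a log2 fold change of 0.05 and a 95% confidence interval from -0.84 to 0.94.

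Of the endfoot membrane genes 1 passed the test at 24 h. Aqp4 was at 157, 293 and 154 normalized counts after stroke and at 561, 363 and 703 after sham surgery, without overlap. Its log2 fold change of -1.44 ± 0.49 (SE) passed the test (adjusted p = 0.0313 in limma). This call was lost when any of 4 single libraries was left out, with log2 fold changes of -1.23 to -1.39 and adjusted p of 0.0860 to 0.109. Kcnj10 (714 ± 87.9 against 1101 ± 138 normalized counts, SD, n = 3) and Mlc1 (529 ± 72.8 against 864 ± 112) did not overlap but did not pass the test, with log2 fold changes of -0.62 and -0.71 and adjusted p of 0.140 and 0.0926 in limma. With the sham contralateral libraries as the reference, Aqp4 differed by -0.14 (adjusted p = 0.850).

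Aldoc was the other called gene at 24 h. Its stroke libraries held 1233, 1586 and 986 normalized counts and its sham libraries 2406, 2083 and 2998. The groups did not overlap, and Aldoc fell by 0.99 (SE 0.34, adjusted p = 0.0318 in limma), a call lost without the same 4 libraries as that of Aqp4 (-0.82 to -1.0, adjusted p 0.0723 to 0.108) and also with the sham contralateral reference (-0.42, adjusted p = 0.369). S100b overlapped between the groups (293 to 544 against 399 to 737 normalized counts) and was not called. Gfap did not separate stroke from sham ipsilateral libraries at 24 h, with 1929, 4092 and 2369 normalized counts after stroke and 3276, 1255 and 4292 after sham surgery. Its log2 fold change was 0.03, with a 95% confidence interval from -1.13 to 1.18. Against sham contralateral libraries, the reference chosen later, Gfap was higher by 1.67 on the log2 scale (adjusted p = 0.0286 in limma).

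At 7 days after tMCAO the glutamate transporter genes were again lower than in sham libraries. Slc1a2 was at 2927, 2742 and 4007 normalized counts in stroke ipsilateral libraries and at 8742, 8355 and 16491 in sham ipsilateral libraries. It fell by 1.74 on the log2 scale without overlap (SE 0.31, adjusted p = 4.2e-04 in limma), and the ratio of the group means was 0.288. Slc1a3 was at 705, 688 and 805 against 2344, 1867 and 2993 normalized counts. These libraries were also separate, with a log2 fold change of -1.69 ± 0.22 (SE; adjusted p = 2.2e-05 in limma). In this comparison 9.95% of all tested genes were called lower and 3.27% higher, and of the 10 astrocyte genes 5 were lower and 0 higher. The median of the 10 was -1.08, against 0.02 over all tested genes, and -0.63 without replicate 3 of the sham group, the library that stood apart. Libraries did not overlap for 8 of the 10 genes, against 30.0% of all tested genes.

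Gjb6, Mlc1 and Kcnj10 were the other genes called lower at 7 days. Gjb6 was at 204, 180 and 266 normalized counts after stroke and at 639, 547 and 656 after sham surgery, with a log2 fold change of -1.51 ± 0.29 (SE; adjusted p = 0.00105 in limma). Mlc1 held 349, 318 and 489 against 832, 699 and 1610 normalized counts and fell by 1.37 (SE 0.31, adjusted p = 0.00458). Both genes were below all their sham libraries in each stroke library. Kcnj10, at 634, 618 and 685 against 1015, 1056 and 2073, was likewise separate and fell by 1.02 (SE 0.32, adjusted p = 0.0315 in limma). Without replicate 3 of the sham group its log2 fold change was -0.68 and the call was lost (adjusted p = 0.172), whereas Gjb6 (-1.46), Slc1a2 (-1.43), Slc1a3 (-1.52) and Mlc1 (-1.01) were still called.

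Gfap was the gene of the 10 that was on the higher side at 7 days. Its stroke libraries were at 3453, 3934 and 5327 normalized counts and its sham ipsilateral libraries at 1075, 1008 and 3327. The highest sham library came within reach of the lowest stroke library, the groups did not overlap, and the log2 fold change of 1.44 ± 0.55 (SE) did not pass the test (adjusted p = 0.0821 in limma). Without replicate 3 of the sham group it was 2.0 and passed (adjusted p = 0.0228). Gfap was also called against the sham contralateral libraries (2.24, adjusted p = 0.00943) and against all 6 sham libraries (1.84, adjusted p = 0.00893), both references chosen after the data were seen. With the sham contralateral reference Mlc1 (-0.86, adjusted p = 0.0795) and Kcnj10 (-0.69, adjusted p = 0.169) lost their calls at 7 days.

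Aqp4, Gja1, Aldoc and S100b were not called at 7 days. Aqp4 was at 161, 217 and 194 normalized counts after stroke and at 280, 284 and 916 after sham surgery, which did not overlap (log2 fold change -1.14 ± 0.49, SE, adjusted p = 0.123 in limma). Without replicate 3 of the sham group the Aqp4 difference was -0.57. S100b was near equal in both groups, at 518, 477 and 608 against 485, 499 and 681 normalized counts, with a log2 fold change of -0.04 and a 95% confidence interval from -0.68 to 0.59. Gja1 differed by -1.0 with overlapping libraries (adjusted p = 0.123) and Aldoc by -0.77 (adjusted p = 0.129). Without replicate 3 of the sham group these differences were -0.48 (adjusted p = 0.486) and -0.55 (adjusted p = 0.356).

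**Figure D2:**
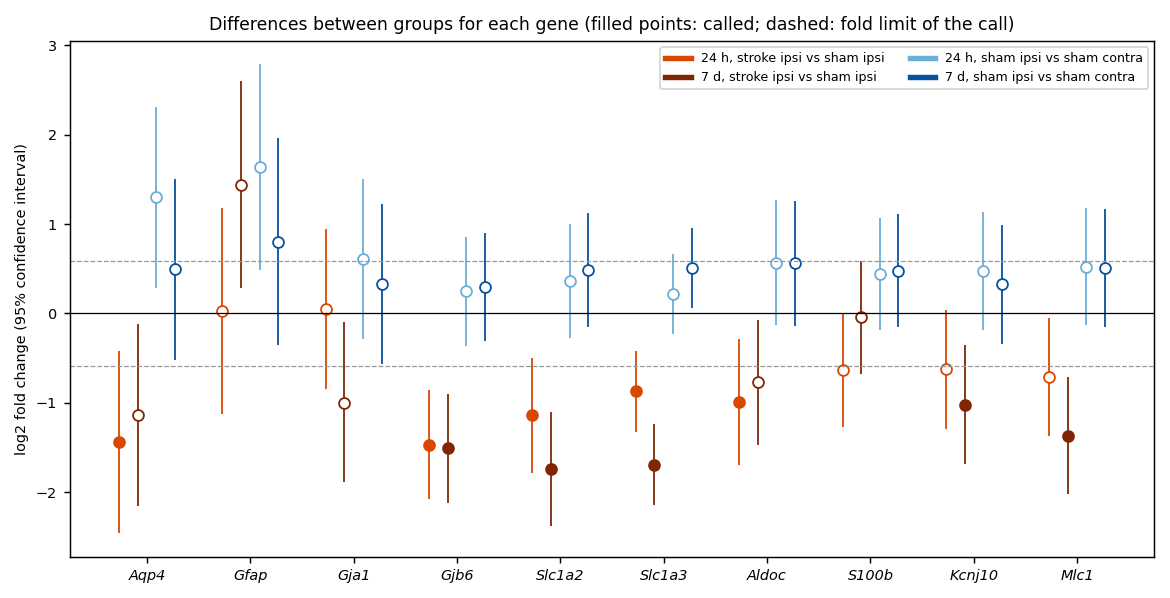
Log2 fold change (y axis) of each gene with its 95% confidence interval for 4 comparisons, with filled points for called genes and dashed lines at the 1.5-fold limit in both directions. Gjb6, Slc1a2 and Slc1a3 were called lower at both times, Gfap lay at 0.03 at 24 h and at 1.44 at 7 days, and no gene was called between the sham hemispheres.

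Across both times, 3 of the 10 genes, Gjb6, Slc1a2 and Slc1a3, were called lower against sham ipsilateral libraries, as were 3.99% of all tested genes. Whether the effect of stroke changed between the times was tested as an interaction. It was called for 0 of the 10 genes and for 8.12% of all tested genes, and before adjustment 1 of the 10, Slc1a3, was below 0.05 (-0.81 ± 0.31, SE, adjusted p = 0.0943 in limma). The share of all tested genes below 0.05 before adjustment was not worked out. For Gfap the interaction was 1.41 ± 0.78 (SE; adjusted p = 0.261) and for Gja1 -1.04 ± 0.60 (adjusted p = 0.285), and neither passed the test. Without replicate 3 of the sham ipsilateral group at 7 days these values were 1.97 (adjusted p = 0.122) and -0.53 (adjusted p = 0.617). Compared directly, stroke ipsilateral libraries at 7 days and at 24 h differed in 1 of the 10 genes, against 12.2% of all tested genes. Gja1 fell by 1.48 (SE 0.43, adjusted p = 0.0193 in limma), from 3659, 4490 and 2375 to 1717, 1003 and 1032 normalized counts without overlap, and the call was lost in 4 of 6 fits that left out a library (adjusted p 0.0685 to 0.0815 in those).

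The contralateral hemisphere of the same mice served as another control. At 24 h, Slc1a2 (-1.08 ± 0.31, SE, adjusted p = 0.0138), Gjb6 (-0.95 ± 0.29, adjusted p = 0.0222) and Slc1a3 (-0.75 ± 0.22, adjusted p = 0.0158 in limma) were lower ipsilaterally. These were 3 of the 10 genes, against 5.14% of all tested genes called lower and 8.51% called higher. None of these calls held without replicate 1 of the stroke contralateral group or without replicate 1 of the stroke ipsilateral group, and that of Gjb6 was also lost without replicate 3 of the former or replicate 2 of the latter. At 7 days 6 of the 10 genes were lower and 0 higher, against 9.98% and 3.03% of all tested genes. Slc1a2 differed most, at 2927, 2742 and 4007 ipsilaterally against 28183, 9572 and 11358 normalized counts contralaterally, and fell by 2.19 (SE 0.31, adjusted p = 3.2e-05 in limma). Without replicate 1 of the contralateral group, the library that stood apart, the Slc1a2 difference was -1.71, and Gjb6 (-1.33), Slc1a3 (-1.23) and Mlc1 (-1.04) were also still called, while Aldoc (-0.73) and Kcnj10 (-0.77) were not. The median of the 10 genes at 7 days was -1.25 with this library and -0.75 without it, against 0.03 and 0.02 over all tested genes. Comparisons against sham and against the contralateral hemisphere share the stroke ipsilateral libraries and are not independent.

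The hemispheres of sham mice were not called different in these genes, and with no unoperated mice the effects of surgery and of side cannot be told apart. All 10 genes had a positive log2 difference between ipsilateral and contralateral sham libraries at 24 h, with a median of 0.50, and likewise at 7 days, with a median of 0.49. Over all tested genes the medians were -0.01 and 0.00. Called were 0 of the 10 genes and 0% of all tested genes at both times, while without adjustment limma's p was below 0.05 for 2 of the 10 at 24 h and for 1 at 7 days. These unadjusted counts have no share of all tested genes beside them, since it was not worked out. Gfap was at 3276, 1255 and 4292 normalized counts ipsilaterally and at 489, 727 and 1637 contralaterally at 24 h, a log2 difference of 1.64 ± 0.55 (SE; adjusted p = 1), and these libraries overlapped. Aqp4 was at 561, 363 and 703 against 130, 205 and 359, without overlap, with a log2 difference of 1.30 ± 0.49 (adjusted p = 1 in limma). Of the 60 comparisons of a gene within a pair of same-numbered sham libraries, the ipsilateral value was higher in 57, and 8 of the 10 genes were higher in all 6 pairs. These 60 are not independent, since they come from 6 pairs and the genes vary together within a library. No such count of pairs was made over all tested genes. At 7 days, without replicate 3 of the ipsilateral group, Aqp4 (-0.07), Gja1 (-0.18) and Kcnj10 (-0.01) were no longer positive, and the median of the 10 was 0.21. Some marker lists of other cells were also on the positive side at 24 h and 7 days, with 0 genes called. Medians were 0.33 and 0.34 for 5 of 5 neuronal and 0.59 and 0.19 for 4 of 4 oligodendrocyte markers. They were 0.90 and 0.89 for 4 of 4 choroid plexus and 0.36 and 0.52 for 5 of 5 tested leukocyte markers. Other sums were lower ipsilaterally at 24 h without overlap. The 6 mural markers summed to 104238 to 127801 against 135015 to 140536 contralaterally. For 20 other genes typical of astrocytes the sums were 120097 to 127249 against 128188 to 140223. Both sums overlapped at 7 days. Such sums follow the most abundant genes of a list and cannot be set beside medians per gene. Glul alone had a mean of 42148 normalized counts in sham ipsilateral libraries at 7 days, where the 20 genes summed to 102975 to 122043. The part of the listed cells in the difference between the sham hemispheres was not tested.

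Contralateral libraries after tMCAO were called different from sham contralateral libraries in 0 of the 10 genes at either time, against 0% of all tested genes at 24 h and 0.0313% at 7 days. Without adjustment, limma's p was below 0.05 for 0 of the 10 genes at 24 h and for 4 at 7 days, Gfap, Slc1a2, Aldoc and S100b. How many of all tested genes were below 0.05 without adjustment was not worked out, here or between the times, so these counts have no background. At 7 days all 10 genes were on the positive side with a median of 0.60, or 0.15 without the library that stood apart. Over all tested genes the median was 0.01 with that library and 0.00 without it. Gfap was then at 6583, 1981 and 2349 normalized counts against 1030, 762 and 867, without overlap, with a log2 difference of 1.83 ± 0.55 (SE; adjusted p = 0.322). Without the library that stood apart this difference was 1.29, whereas that of Aqp4 changed from 0.44 to -0.09 and that of Gja1 from 0.08 to -0.42. Between 24 h and 7 days, 0 of the 10 genes were called in the stroke contralateral (0% of all tested genes), the sham ipsilateral (0.476%) or the sham contralateral groups (0.332%), and before adjustment 3, 0 and 0 of the 10 had a limma p below 0.05.

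To set single genes apart from the common level of the 10, each gene was also expressed relative to the mean log2 value of the other 9 in the same library, as a description with no test. Fewer endfeet in the vessel preparation and less RNA per endfoot cannot be told apart in such bulk libraries. Gfap had a relative level of 0.80 (range -0.07 to 1.30) in sham ipsilateral libraries at 24 h and of 1.70 (1.31 to 2.07) in stroke ipsilateral libraries. At 7 days it was at 0.10 (-0.18 to 0.62) after sham surgery and at 2.69 (2.43 to 2.87) after stroke, the highest relative level of Gfap in the 8 groups. On this scale Gfap did not overlap between stroke and sham ipsilateral libraries at either time, though the ranges almost met at 24 h. Contralaterally after stroke at 7 days it was at 0.98 (1.15 in the library that stood apart, 0.89 and 0.90 in the others), against -0.26 (-0.42 to 0.00) in sham contralateral libraries.

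Relative to the other 9 genes, Gja1 was at 2.09 (1.72 to 2.33) in stroke ipsilateral libraries at 24 h and at 1.17 (1.0 to 1.35) in sham ipsilateral libraries. At 7 days Gja1 was at 0.71 (0.24 to 1.31) and 0.83 (0.57 to 1.24), which overlapped. S100b was at -0.61 (-0.62 to -0.61) in stroke ipsilateral libraries at 7 days and between -1.92 and -1.27 in the sham ipsilateral libraries of that time. Slc1a2 had the opposite course, at 2.25 (2.16 to 2.41) after stroke against 3.21 (3.18 to 3.25) after sham surgery at 7 days. These relative values are tied to one another, since each gene enters the reference of the others.

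**Figure D3:**
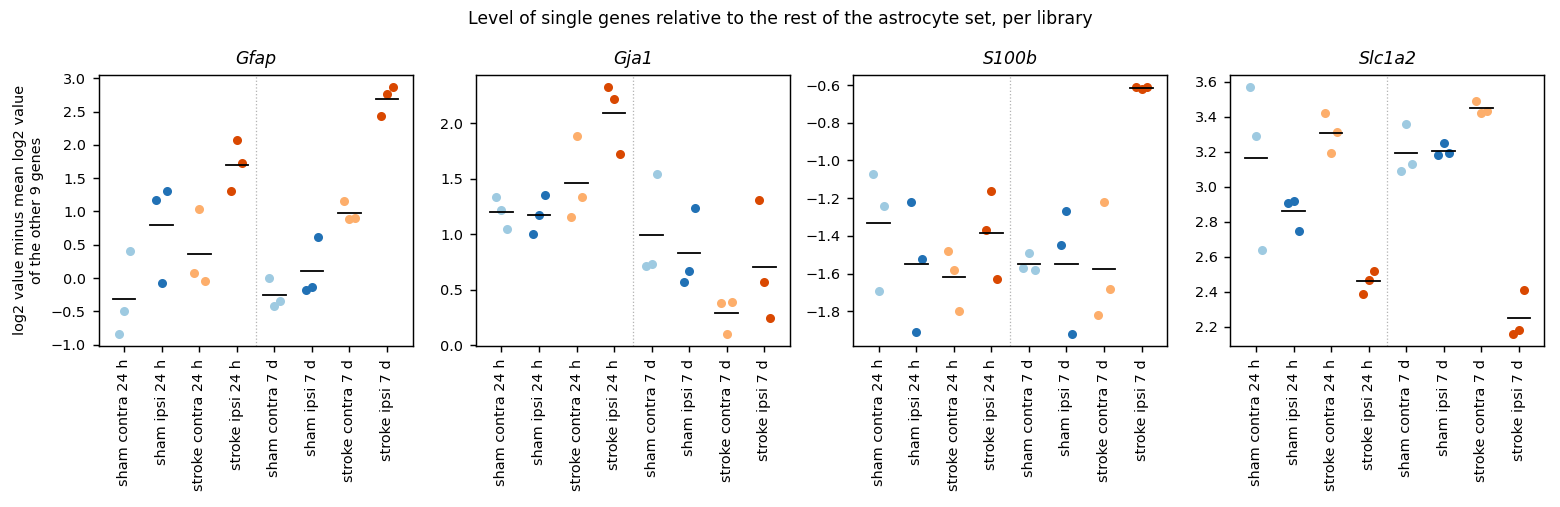
Log2 value of Gfap, Gja1, S100b and Slc1a2 minus the mean log2 value of the other 9 genes (y axis) in each library of the 8 groups (x axis), with bars for group means. Gfap reached 2.43 to 2.87 in stroke ipsilateral libraries at 7 days, Gja1 1.72 to 2.33 in those at 24 h, and Slc1a2 was lowest in the stroke ipsilateral groups.

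Over the 24 libraries the genes varied together to unequal degrees. The median Pearson correlation of a gene's log2 values with those of the other 9 was 0.84 for Kcnj10, 0.83 for Aldoc and 0.80 for Slc1a2, but 0.25 for Gfap. In the 18 libraries that were not ipsilateral after stroke the median for Gfap was 0.77. All libraries share the normalization, and such correlations describe these libraries only. Outside the set, the genes most like the mean of the 10 were Ntsr2 (0.96), a neurotensin receptor, Hepacam (0.96), the adhesion molecule that binds the Mlc1 protein, Slc6a11 (0.96), a GABA transporter, Slc4a4 (0.95), a bicarbonate transporter, and Acsbg1 (0.95), an acyl-CoA synthetase. Most like Gfap were Tsc22d4 (0.81), Fabp5 (0.80), a fatty acid binding protein, Tssc4 (0.79), Gas5 (0.77), a non-coding RNA, and C4b (0.76), a complement component, each over 24 libraries.

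Other genes typical of astrocytes were mostly lower as well. Of 20 such genes, 14 were called lower and 0 higher at 24 h, with a median log2 fold change of -0.91, and 11 lower and 0 higher at 7 days, with a median of -0.89, both against sham ipsilateral libraries. For this and the following lists, 8.23% of all tested genes were lower and 10.0% higher at 24 h. At 7 days 9.95% were lower and 3.27% higher. Against the stroke contralateral hemisphere 1 of the 20 was lower at 24 h (median -0.41) and 14 were at 7 days (median -1.10), with 0 higher. There 5.14% and 9.98% of all tested genes were lower. Cldn10, a claudin, had the lowest values at both times and fell, with log2 fold changes of -1.58 (SE 0.40, adjusted p = 0.00568 in limma) and -2.49 (SE 0.40, adjusted p = 1.7e-04). Slc39a12, a zinc transporter, fell by 1.51 at 24 h, and Gpr37l1, an orphan receptor, fell by 2.01 at 7 days. At the other end of the list Plpp3 was at 0.12 and Mfge8 at -0.02 at 24 h, and Glul, the glutamine synthetase, was at 0.25 and Fgfr3 at 0.15 at 7 days, all not called. Of these 20 genes, several such as Mfge8 and Plpp3 are also made by vascular cells, and Vim and S100a10 each stand in more than 1 of the lists that follow.

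A list of endfoot genes was called in part at 24 h. It holds the dystroglycan complex, which anchors the endfoot to the basement membrane, but also channels and an adhesion molecule. Of 13 such genes 6 were lower at 24 h (median -0.65) and 1 was lower at 7 days (median -0.24), with 0 higher at both times. The count at 7 days was near the share of all tested genes called lower (9.95%). At 7 days the called gene was Dtna, the dystrobrevin of astrocytes (-0.80, SE 0.21, adjusted p = 0.0116 in limma), named after its value was seen. Hepacam fell by 1.08 at 24 h (SE 0.40, adjusted p = 0.0441 in limma) and Clcn2, a chloride channel, by 0.96 (SE 0.33, adjusted p = 0.0324). At 7 days Hepacam was at -1.12 (adjusted p = 0.0579) and Clcn2 at -0.86 (adjusted p = 0.0822), not called. The largest values belonged to Trpv4, a calcium-permeable channel, at 0.31 at 24 h and 0.83 at 7 days, followed by Ezr (0.03) at 24 h and Agrn, a heparan sulphate proteoglycan (0.20), at 7 days, none of them called.

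Relatives of the 10 genes from the same families were called in both directions at 24 h and in the lower direction at 7 days. Of the 28 relatives, 27 were tested, 5 were higher and 1 was lower at 24 h (median 0.10), and 0 were higher and 6 lower at 7 days (median -0.28). Gja5, a connexin of arterial endothelium, rose from 706 to 803 normalized counts in sham libraries to 1911 to 1953 after stroke at 24 h, by 1.38 on the log2 scale (SE 0.16, adjusted p = 6.6e-06 in limma), and S100a11 by 1.37 (SE 0.21, adjusted p = 8.1e-05). The other genes called higher were S100a6 (1.07), Vim (0.77), an intermediate filament like Gfap, and S100a16 (0.60), named after their values were seen. At 7 days Gja5 was itself among the lower genes (-0.65, SE 0.16, adjusted p = 0.00814). Gjb2, a connexin also made by meningeal cells, fell by 1.97 at 7 days (SE 0.33, adjusted p = 2.6e-04). Kcnj16, a potassium channel subunit that pairs with the Kcnj10 protein, fell by 1.09 at 24 h (SE 0.35, adjusted p = 0.0255). Kcnj9, a potassium channel subunit of neurons, was at -1.11 at 24 h, not called, and fell by 4.21 at 7 days (SE 0.62, adjusted p = 8.5e-05), where its stroke libraries were at 0 to 16 normalized counts. S100a11 at 0.36 and S100a16 at 0.46 had the largest values of the list at 7 days and were not called.

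Genes that are known to mark reactive astrocytes, many of which vascular and immune cells also make, were called in the higher direction or not at all at both times. Of 12 genes shared by reactive states 5 were higher and 0 lower at 24 h (median 0.64), and 1, Aspg, was higher at 7 days (0.89, median of the list 0.40). Timp1, an inhibitor of metalloproteinases, was at 971 to 1595 normalized counts after stroke and 61 to 164 after sham surgery at 24 h and rose by 3.47 (SE 0.67, adjusted p = 7.7e-04 in limma). Cd44, a hyaluronan receptor, was at 428 to 771 against 53 to 128 and rose by 2.77 (SE 0.53, adjusted p = 7.0e-04). Cxcl10 (2.04), Vim (0.77) and Hspb1 (0.63) were the other called genes, named like Aspg after their values were seen. S1pr3 (-0.50) and Cp (-0.41) had the smallest values at 24 h, S1pr3 (-0.55) and Steap4 (0.05) at 7 days, and Serpina3n (2.31) and Lcn2 (2.05) the largest at 7 days, all not called.

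Of 13 genes of the A2 type, 5 were higher at 24 h and all 13 were positive (median 1.39), and 0 were called at 7 days (median 0.25). Ptx3 rose by 3.13 (SE 1.11, adjusted p = 0.0384 in limma) from a mean of 6.00 to one of 32 normalized counts, and Tgm1, a transglutaminase, by 2.14 (SE 0.70, adjusted p = 0.0261). Called as well were B3gnt5 (1.63), Cd109 (1.53) and Clcf1 (1.39), named after their values were seen. Stat3 (0.32) and Tm4sf1 (0.52) were the smallest at 24 h, and at 7 days Slc10a6 (2.4) and Cd14 (1.83) were the largest and Ptx3 (-1.33) and Sphk1 (-0.58) the smallest, all not called. Of the 11 tested genes of the A1 type, 1, the proteasome subunit Psmb8 (0.64, SE 0.17, adjusted p = 0.00666), was higher at 24 h and 0 were called at 7 days. The count at 24 h was near the share of all tested genes called higher (10.0%). In this list H2-D1 (0.50), H2-T23 (-0.16) and Amigo2 (-0.46) at 24 h, and Fkbp5 (1.78), H2-T23 (0.49), Gbp2 (-0.37) and Fbln5 (-0.42) at 7 days, were not called.

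**Figure D4:**
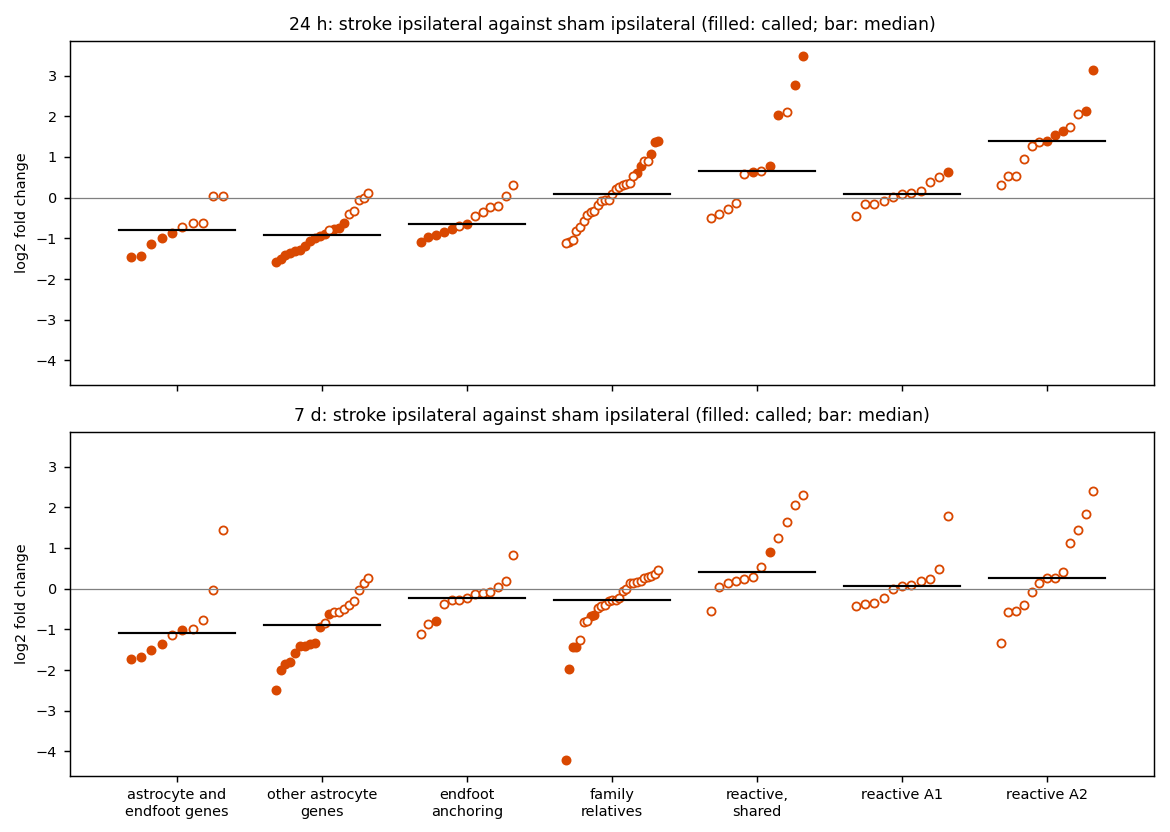
Log2 fold change (y axis) between stroke and sham ipsilateral libraries for each tested gene of 7 lists (x axis), at 24 h above and 7 days below, with filled points for called genes and a bar for the median of each list. The medians of the 10 astrocyte and endfoot genes were -0.79 and -1.08, those of the 20 other astrocyte genes -0.91 and -0.89, and those of the A2 list 1.39 and 0.25.

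Of the markers of other brain cells that can cling to vessels, those of neurons were lower at both times and those of the choroid plexus at 7 days, while the sums of oligodendrocyte markers overlapped. The sum of 5 neuronal markers, all detected, was 3376 to 3690 normalized counts in sham ipsilateral and 1375 to 1818 in stroke ipsilateral libraries at 24 h, and 3 of the 5, Gad1 (-1.53), Snap25 (-1.40) and Syt1 (-1.25), were called lower. At 7 days this sum was 3112 to 5094 against 355 to 639, and 5 of 5 were called lower with a median log2 fold change of -2.95. The sum of 4 oligodendrocyte markers was 28710 to 58204 against 17115 to 43687 at 24 h (Mog lower), and 26230 to 65952 against 47392 to 62031 at 7 days (Mog lower). The median log2 fold change of these 4 markers was -0.80 at 24 h, with 4 of 4 negative. At 7 days it was -0.64, with 3 of 4 negative. The 4 choroid plexus markers summed to 15422 to 28379 in sham and 598 to 2961 in stroke ipsilateral libraries at 7 days (Ttr, Kcnj13 and Folr1 lower). The genes in parentheses were picked once their values were known. The part of these cells in the lower level of the astrocyte genes was not tested.

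Of the vascular markers few were called, although the sums of mural markers were lower after stroke without overlap at both times. The median log2 fold changes of the mural list were -0.38 at 24 h and -0.48 at 7 days. The sum of 7 endothelial markers was 367134 to 466081 in sham and 330387 to 371897 in stroke ipsilateral libraries at 24 h (Slco1a4 lower), and 321184 to 475038 against 381221 to 521696 at 7 days (0 called). The 6 mural markers summed to 104238 to 127801 against 64086 to 101187 at 24 h (Rgs5 and Vtn lower) and to 127393 to 142115 against 80088 to 96108 at 7 days (Vtn lower). The 4 fibroblast markers summed to 7514 to 13192 against 6145 to 12797 at 24 h (0 called) and to 8045 to 13184 against 5331 to 5634 at 7 days (Dcn and Lum lower). Leukocyte markers were higher, with 5 of 5 tested genes called at 24 h (sum 2404 to 4049 against 7952 to 12169) and 1, Ptprc, at 7 days (2808 to 5294 against 3397 to 9446). Sums of 4 microglial markers were 1690 to 3591 against 1674 to 2666 at 24 h and 1940 to 2923 against 2034 to 2566 at 7 days, with 0 called. Ependymal markers were near the floor of the table, with sums of 16 to 321 normalized counts in the ipsilateral libraries, and the 2 markers of oligodendrocyte precursors were not called at either time.

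**Figure D5:**
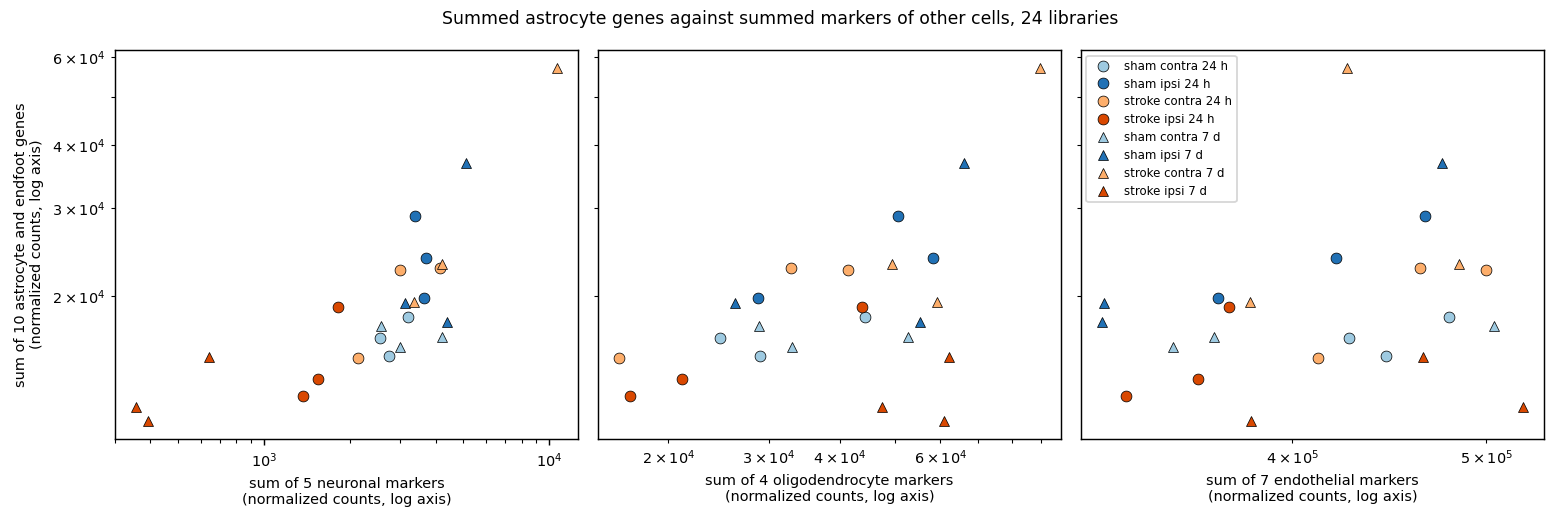
Summed normalized counts of the 10 astrocyte and endfoot genes (y axis, log) against the sums of 5 neuronal, 4 oligodendrocyte and 7 endothelial markers (x axes, log) in 24 libraries, with circles for 24 h and triangles for 7 days. The stroke ipsilateral libraries at 7 days lay at 11269 to 15093 for the astrocyte genes and at 355 to 639 for the neuronal markers, within the range of the other libraries for the oligodendrocyte markers.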

How the data were processed

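Values came from 24 libraries of mouse brain microvessels, 3 in each of 8 groups read from the sample labels. Per the labels, poly(A) RNA libraries were stranded. The submitters' processing notes name STAR 2.5.2b, featureCounts 1.5.1 and DESeq2 1.6.2 with mm10, whereas the paper gives other versions of STAR and DESeq2. The values that the authors deposited are a score, since counts had been divided by size factors from DESeq2 and rounded, so they are not reads and were not given to a count test. Such values are relative to the 24 libraries together, and the depth in reads was not recovered from them, with totals of 15924780 to 18787932 normalized counts. Because libraries pool 3 hemispheres, p-values measure the spread between pools.

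A pseudocount of 1 was added, and the 15982 genes whose mean exceeded 5 were fitted on the log2 scale in limma 3.58.1 (R 4.3.3) with a trend of the variance on the mean. The fit held all 8 groups, and 12 comparisons between groups and the interaction of stroke effect and time were tested. Benjamini-Hochberg adjustment ran over all tested genes. A gene was called below an adjusted p of 0.05 and beyond a 1.5-fold difference, and a log2(value + 1) fold change understates changes of low genes. The fit was tested on simulated data. The members and all gene lists were chosen with earlier results of these data known. Named were the 10 members, the 2 largest and 2 smallest log2 fold changes of each of 6 astrocyte lists at each time, and the 5 genes most correlated with the members' mean and with Gfap. Promoters were RefSeq's on GRCm38.p6, and lengths were unions of exons in GENCODE M21. Python 3.11.15, pandas 2.3.3, numpy 2.4.6 and matplotlib 3.10.9 were used.

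Alternatives were a pseudocount of 0.5, no filter, a minimum mean of 20, median centring, array weights, only the compared groups, no limit on the fold change, a replicate block, and each library left out. Same-numbered libraries of the sham hemispheres deviated together (correlation of their deviations 0.32, 0.41 and 0.15 at 24 h and 0.32, 0.44 and 0.47 at 7 days). They were taken as paired in the counts of pairs, a pairing that the labels give by number only. The main fit did not use it, so the errors and p-values between hemispheres are unpaired. Between the stroke hemispheres these correlations were 0.07, 0.36 and 0.33 at 24 h and 0.06, 0.31 and 0.06 at 7 days. Outside the sham hemispheres no comparison had every pair above 0.1. Data other than the sequencing were not used here. A marker each of the oligodendrocyte and microglial lists is not reported here and was left out of their sums.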

Additional observations from a re-analysis of the deposited data

How the results depend on the processing

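No gene of the 10 that was called changed its direction under any alternative. Between stroke and sham ipsilateral libraries at 24 h, 5 of the 10 genes were called, and 3 to 6 when single libraries were left out. Without sham ipsilateral replicate 1 or 3, or stroke ipsilateral replicate 1 or 3, the count was 3. With the sham contralateral libraries or with all 6 sham libraries of that time as the reference, alternatives chosen after the data were seen, it was 3 each, in the first case 2 lower and 1 higher. Between the stroke hemispheres at 24 h the count of 3 ranged from 0 to 3, with 0 without replicate 1 of either group, and between stroke ipsilateral libraries of 7 days and 24 h the count of 1 ranged from 0 to 1. The interaction was called for 0 of the 10 genes, but for 1, Slc1a3, with array weights and 1 with only the compared groups in the fit (adjusted p = 0.0273 and 0.0428 in limma). The causes were not tested. Single genes also gained calls: at 24 h Mlc1 with array weights (-0.69, adjusted p = 0.0347) and Kcnj10 and Mlc1 with only the compared groups (adjusted p = 0.00884 and 0.00750), S100b without sham ipsilateral replicate 2 (-0.93, adjusted p = 0.0376), and at 7 days Gfap (1.78, adjusted p = 0.0102) and Aldoc (-0.84, adjusted p = 0.0405) with array weights. Kcnj10 at 7 days also lost its call without any 1 of the stroke libraries (adjusted p 0.0579 to 0.0880), and between the stroke hemispheres at 7 days Aldoc and Kcnj10 lost theirs with only the compared groups in the fit (adjusted p = 0.113 and 0.0840).

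In fits with a replicate block, 5 and 5 of the 10 genes were called against sham ipsilateral libraries at 24 h and 7 days, 3 and 6 between the stroke hemispheres, and 0 between the sham hemispheres, and none of the 130 single calls changed. Only between hemispheres of the same surgery and time can a shared number stand for the same mice. In the other comparisons the mice differed, so the block paired nothing and its unchanged calls are no check there. Over all tested genes, 1603 were higher and 1316 lower at 24 h against sham ipsilateral libraries, and 1330 higher and 1707 lower after median centring, which moved the median of all genes from -0.02 to -0.09 and changed no call of the 10 genes, although Gfap and Gja1, both near 0 at that time, changed sign. Pseudocount, filter and fold limit did not change a call of the 10 either. Precision is limited by 3 pools per group, and the interaction had the widest errors.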
